A study of Homo sapiens with 24 samples.

Results

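The report concerns 9 genes of the epithelial-mesenchymal transition (EMT) that were chosen by name, namely the 7 transcription factor genes SNAI1, SNAI2, ZEB1, ZEB2, TWIST1, TWIST2 and PRRX1 and the 2 mesenchymal cadherin genes CDH2 and CDH11. All 9 passed the filter on low counts and were tested among 17454 genes, out of 34834 genes with a transcript in the deposited tables. They were measured by RNA-Seq in SK-MES1, an established human cell line of lung squamous cell carcinoma (LUSC), depleted of growth factors for 3 h before the start. The TGFβ arm then received TGFβ1 at 2 ng/ml and the control arm received none. RNA was taken at 0, 8, 24 and 48 h from 3 biological replicates of each arm, 24 libraries in all, so that the untreated cells shared the depletion and the time in culture with the treated cells. Each library held between 46613589 and 77964234 estimated counts. Library codes in the names of the deposited tables differed between the arms, with 1 pair of codes for 0 and 8 h and another for 24 and 48 h. The code and the treatment therefore cannot be told apart at a single time point, and the 0 h libraries of both arms carry the codes of the 8 h libraries. Within an arm, a change from 0 or 8 h to 24 or 48 h cannot be told apart from the change of code either. This holds for every comparison of 48 h with 0 h below.

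EMT is the programme by which epithelial cells loosen their junctions, lose apical-basal polarity and gain motility. SNAI1 (Snail) and SNAI2 (Slug) are zinc finger repressors, ZEB1 and ZEB2 are zinc finger homeobox repressors, TWIST1 and TWIST2 are basic helix-loop-helix factors, and PRRX1 is a homeobox factor of mesenchymal tissues. The SNAI and ZEB proteins bind E-box motifs in promoters of epithelial genes such as CDH1, which encodes E-cadherin, and the replacement of E-cadherin by N-cadherin, the product of CDH2, is known as the cadherin switch. TGFβ is a classical inducer of the programme through SMAD proteins.

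Of the markers fixed for the labelled cell type, 7 of 15 squamous genes had a median of at least 1 TPM (transcripts per library total after division by length, so that levels of different genes can be compared), and the defining squamous keratin genes KRT5, KRT6A and KRT14 and the desmosomal cadherin DSG3 stayed below 0.103 TPM in every library. Other keratin genes of the same list reached higher levels, KRT16 with 0.0202 to 2.37 TPM and KRT17 with 0.290 to 71.4 TPM. TP63, the master factor of squamous epithelium, was present at 7.69 to 37.5 TPM, and the simple epithelial keratin genes KRT7, KRT8, KRT18 and KRT19 lay between 211 and 1572 TPM. The summed squamous markers lay between 2981 and 3212 TPM in untreated cells at 0 h and between 775 and 781 TPM at 48 h. In treated cells at 48 h they lay between 842 and 901 TPM. Most of this sum was S100A2, which ranged from 485 to 2952 TPM over all libraries. Mean TP63 ran against the sum, at 9.29 TPM in untreated cells at 0 h and 36.8 TPM at 48 h. The summed fibroblast and pericyte markers lay between 225 and 241 TPM in untreated and between 2127 and 2425 TPM in treated cells at 48 h, most of it COL1A1, while COL1A2 and TCF21 were below 0.221 TPM throughout. Their part in the differences below was not tested. In bulk RNA a smaller share of cells that express a gene and less RNA of it per cell cannot be told apart.

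The 9 genes fell into groups by direction. SNAI1, SNAI2, CDH2 and CDH11 were higher in TGFβ-treated than in untreated cells, TWIST1 was lower, and ZEB1, ZEB2, TWIST2 and PRRX1 did not pass the test over 8, 24 and 48 h. In numbers, 5 of the 9 genes differed between the arms over 8, 24 and 48 h (moderated F-test of limma on voom weights, adjusted p below 0.01), 4 higher and 1 lower on average. Of all genes tested, 42.5% did so, 21% higher and 21.5% lower, so the count alone does not set the 9 genes apart. The median of their mean log2 fold change was 0.19, against -0.02 for all genes tested. With library totals in place of TMM factors 4 of the 9 genes were higher and 1 lower, and with 4 reference genes as the scale 7 were higher and 1 lower. The share of higher genes among all called genes was 49.3% with TMM factors, 31.5% with library totals and 88.5% with 4 reference genes.

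**Figure D1:**
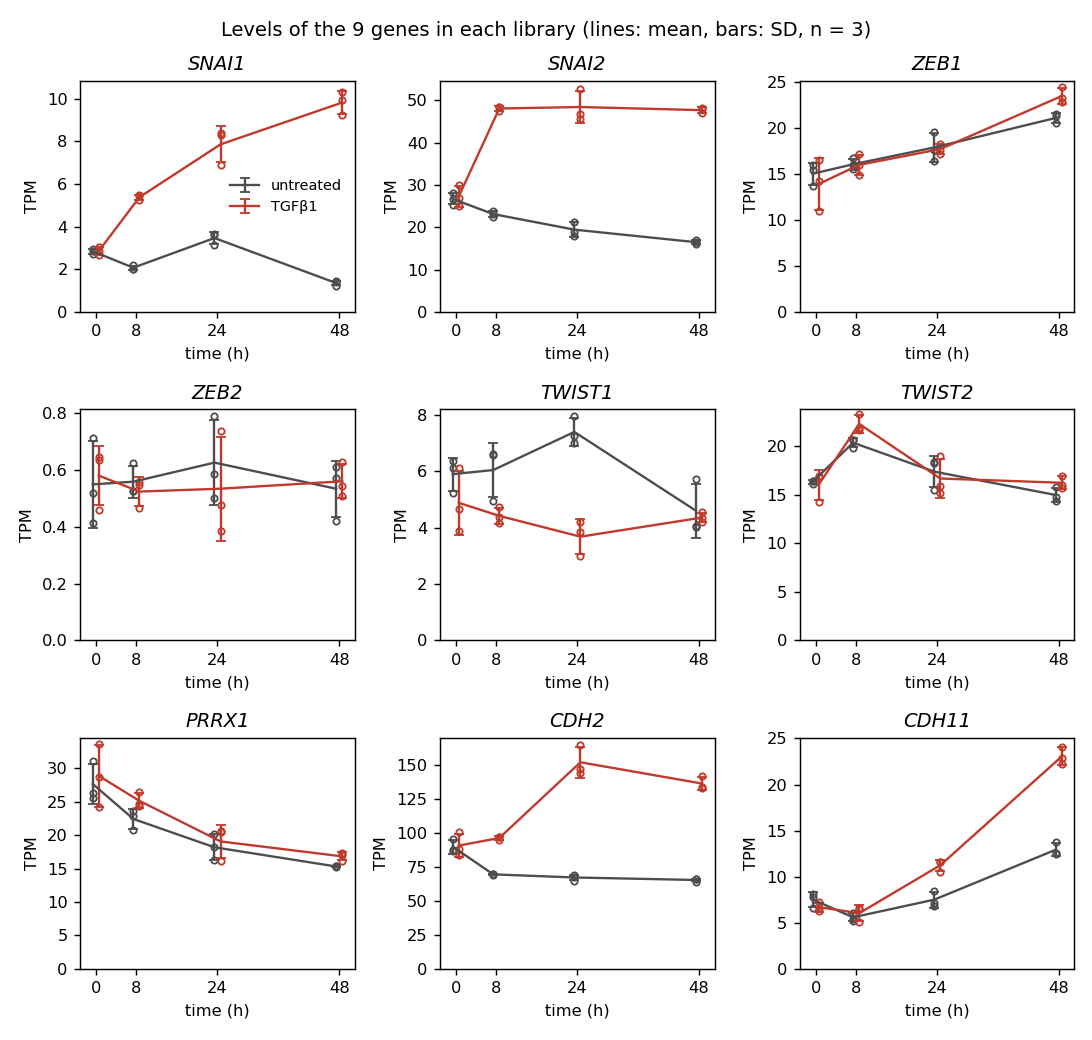
Level of each of the 9 genes in TPM (y axis, from 0) against time in hours (x axis) for untreated (grey) and TGFβ1-treated (red) SK-MES1 cells, with each library as a circle and the mean ± SD of 3 replicates as a line with bars. The arms separate for SNAI1, SNAI2, CDH2 and CDH11, run close together for ZEB1, ZEB2, TWIST2 and PRRX1, and separate downwards for TWIST1 at 8 and 24 h.

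At 0 h, 0 of the 9 genes differed between the arms, as did 0% of all genes tested (limma, with 800 genes at an unadjusted p under 0.05, and 0 of the 9 by edgeR and by DESeq2). At 8 h, 4 of the 9 genes differed, SNAI1, SNAI2 and CDH2 upwards and TWIST1 downwards, beside 16.4% of all genes. At 24 h CDH11 joined them, which made 5 of 9 beside 29.3% of all genes. At 48 h the count was 4 of 9, all higher, beside 32.6% of all genes, since the difference of TWIST1 no longer passed the threshold.

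**Figure D2:**
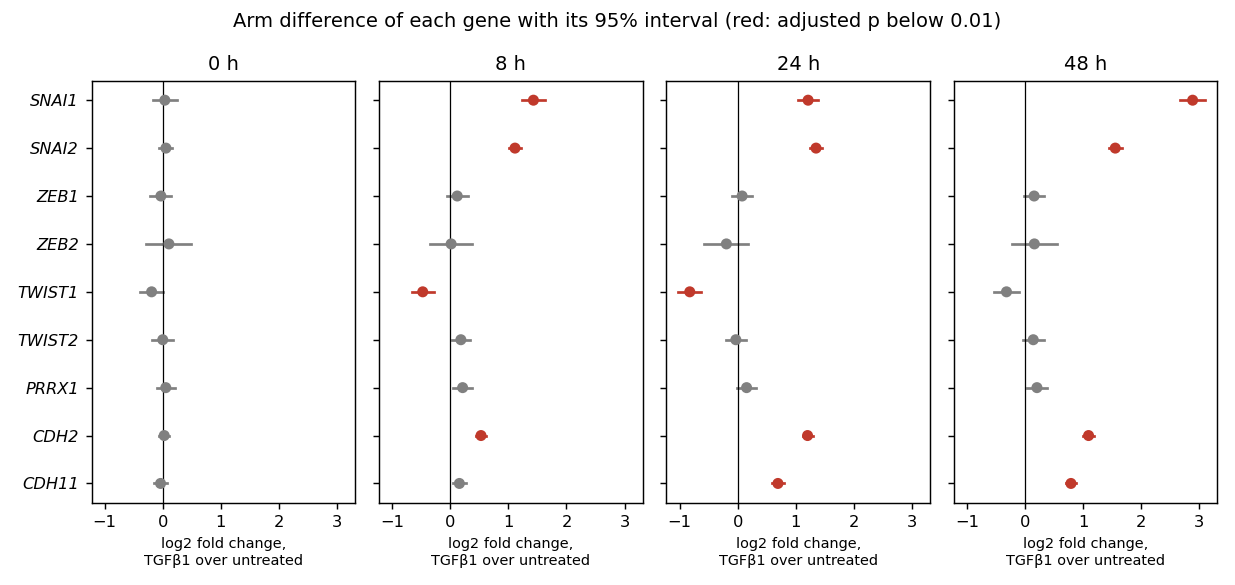
Fitted log2 fold change between TGFβ1-treated and untreated cells (x axis) for each gene (y axis) at 0, 8, 24 and 48 h, with bars for the 95% interval and red for an adjusted p below 0.01. At 0 h every interval includes 0; the largest value is that of SNAI1 at 48 h, 2.88.

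SNAI1, the gene of Snail, had the largest fold change of the 9 genes, reached at 48 h. At 0 h its level was 2.73, 2.86 and 2.94 TPM in the untreated libraries and 2.66, 3.05 and 2.87 TPM in those of the TGFβ arm. At 48 h the untreated libraries held 1.23, 1.40 and 1.43 TPM and the treated ones 9.94, 10.3 and 9.22 TPM. The arms overlapped at 0 h and were apart at 8, 24 and 48 h. The log2 fold change was 1.43 (SE 0.099) at 8 h, 1.21 (SE 0.087) at 24 h and 2.88 (SE 0.113) at 48 h, with adjusted p of 3.6e-10, 2.6e-10 and 8.8e-15. From 24 to 48 h the difference widened by 1.67 on the log2 scale (SE 0.142, adjusted p = 5.9e-08).

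The widening came mainly with a lower untreated level. In untreated cells the mean SNAI1 level at 24 h, 3.47 ± 0.28 TPM, stood against 1.35 ± 0.10 TPM at 48 h (SD, n = 3), a fitted log2 change of -1.42 (adjusted p = 7e-09). In treated cells it was 7.86 ± 0.84 and 9.83 ± 0.55 TPM, a log2 change of 0.25 whose adjusted p was 0.011. The untreated arm itself was not steady, with 2.07 ± 0.09 TPM at 8 h below both of its neighbours. All of the signal comes from SNAI1-201, the single annotated transcript (GRCh38 chr20:49982980-49988886, plus strand, 3 exons), and rests on 67 to 532 estimated counts per library.

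SNAI2, the gene of Slug, was more abundant than SNAI1 in every library and had in treated cells at 8 h the level it kept to 48 h. Untreated libraries held 25.4, 28.0 and 26.7 TPM at 0 h and 16.01, 16.49 and 16.90 TPM at 48 h. Treated libraries held 47.4, 48.4 and 48.3 TPM at 8 h and 46.9, 48.0 and 48.1 TPM at 48 h. The treated level was thus flat after 8 h, the untreated level lower at each later time point, and the arms did not overlap from 8 h on. The log2 fold change was 1.11 (SE 0.054) at 8 h, 1.35 (SE 0.056) at 24 h and 1.55 (SE 0.057) at 48 h, with adjusted p of 1.2e-12, 3.3e-14 and 3.7e-15. The steps in the difference from 8 to 24 h and from 24 to 48 h, 0.23 and 0.20, did not pass the threshold (adjusted p = 0.057 and 0.098).

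SNAI3, the third Snail family gene, was hardly expressed. Its mean level at 48 h was 0.745 ± 0.15 TPM in untreated and 0.516 ± 0.14 TPM in treated cells, and it did not pass the F-test (adjusted p = 0.050).

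ZEB1 showed no difference between the arms that passed the test. At 48 h the untreated libraries held 20.5, 21.3 and 21.5 TPM and the treated ones 24.4, 23.3 and 22.8 TPM. These libraries did not overlap in TPM, although those at 0, 8 and 24 h did. The fitted log2 fold changes at 8, 24 and 48 h were 0.12, 0.08 and 0.16, with a 95% interval at 48 h from -0.02 to 0.33 and an F-test adjusted p of 0.24. A fit on the 48 h libraries alone called ZEB1 higher, and with 4 reference genes as the scale its log2 fold change was 0.52 at 24 h and 0.51 at 48 h and the F-test adjusted p 0.0020. The mean ZEB1 level at 48 h lay above that at 0 h in both arms, with 15.0 ± 1.2 TPM at 0 h against 21.1 ± 0.52 TPM at 48 h in untreated cells and 13.9 ± 2.8 against 23.5 ± 0.85 TPM in treated cells.

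ZEB2 was near the lower end of what these libraries measure. Its level was between 0.386 and 0.791 TPM in all 24 libraries, the arms overlapped at every time point, and the F-test adjusted p was 0.71. Of its counts, 90.6% fell on ZEB2-227, a transcript with a retained intron and a single exon (GRCh38 chr2:144461112-144464078, minus strand) that has no annotated coding sequence. All other ZEB2 transcripts together drew 1 to 11 estimated counts in a library (median 5). The values for ZEB2 therefore describe ZEB2-227 and say little about the mRNA that encodes the protein, whose difference was not detectable at this depth.

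TWIST1 was the only one of the 9 genes that passed the F-test with a lower mean in treated cells. At 24 h the untreated libraries held 6.999, 7.26 and 7.95 TPM and the treated ones 3.86, 2.98 and 4.20 TPM. At 48 h the values were 5.72, 4.06 and 4.03 TPM against 4.54, 4.34 and 4.20 TPM. The arms were apart at 8 and 24 h and overlapped at 0 and 48 h. The log2 fold change was -0.47 (SE 0.097, adjusted p = 0.00087) at 8 h, -0.82 (SE 0.099, adjusted p = 8e-07) at 24 h and -0.32 (SE 0.112, adjusted p = 0.025) at 48 h. At 8 h the call was lost on the TPM scale (adjusted p = 0.064 with log2(TPM + 1)) and when the difference at 0 h, -0.19, was subtracted (adjusted p = 0.25). At 48 h, leaving out untreated replicate 1 moved the value to -0.18, and with 4 reference genes as the scale it was 0.03 (adjusted p = 0.80). In the other direction, TWIST1 was called lower at 48 h with library totals, at -0.40 (adjusted p = 0.0054), and without untreated replicate 3 at 48 h.

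The TPM of TWIST1 is split between the coding transcript TWIST1-201 (GRCh38 chr7:19115468-19117636, minus strand, 2 exons), which held 45.1% to 66.2% of it per group, and TWIST1-202, which is annotated as a target of nonsense-mediated decay. TWIST1-201 alone stood at 3.30, 2.82 and 2.40 TPM in untreated and at 1.90, 2.21 and 1.79 TPM in treated cells at 48 h, and its arms were apart at 8, 24 and 48 h. TWIST1-202 varied more between replicates, for instance 1.34, 0 and 1.71 TPM in treated cells at 24 h. With counts from protein-coding transcripts only, an alternative added after the data were seen, TWIST1 was also lower at 48 h, by a log2 change of -0.51 (adjusted p = 0.0018).

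TWIST2, a paralogue that binds the same kind of E-box, differed little between the arms. At 8 h the untreated libraries held 20.6, 20.6 and 19.8 TPM and the treated ones 23.3, 21.9 and 21.7 TPM, which did not overlap. The log2 fold changes at 8, 24 and 48 h were 0.18, -0.03 and 0.14, each with an adjusted p of 0.12 or more. TWIST2 was near 16 TPM at 0 h in both arms and passed through a high point at 8 h, with a fitted log2 change from 0 to 8 h of 0.28 in untreated (adjusted p = 0.016) and 0.46 in treated cells (adjusted p = 0.00017). The difference between these changes, 0.18, did not pass the test (adjusted p = 0.43).

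PRRX1 had a lower mean at 48 h than at 0 h whether or not TGFβ was present, between libraries of different codes. In untreated cells the mean was 27.7 ± 3.0 TPM at 0 h against 15.3 ± 0.08 TPM at 48 h, and in treated cells it was 28.9 ± 4.7 against 16.8 ± 0.59 TPM. Treated libraries lay above untreated ones at 8 and 48 h without overlap, by fitted log2 fold changes of 0.21 and 0.20, and the arms overlapped at 24 h. The F-test adjusted p was 0.016, which missed the threshold of 0.01, and PRRX1 was called with DESeq2, with the replicate block, in a fit without the 0 h libraries and without any of 4 single libraries (control at 0 h replicate 2, control at 24 h replicate 2, TGFβ at 0 h replicate 2, TGFβ at 24 h replicate 3). With 4 reference genes as the scale its log2 fold change was 0.60 at 24 h and 0.56 at 48 h and the adjusted p 0.00019. In the other direction, library totals gave a mean log2 fold change of 0.103 (F-test adjusted p = 0.29). Upper-quartile factors gave 0.145 (F-test adjusted p = 0.073). Among its transcripts, PRRX1-202, a coding form with 651 coding bases against 735 in PRRX1-201, held 1.44, 1.66 and 1.62 TPM in untreated and 2.15, 2.47 and 1.99 TPM in treated cells at 48 h. Single transcripts were not tested. PRRX2, a related homeobox gene, was at 3.60 ± 0.39 TPM in untreated and 5.62 ± 0.38 TPM in treated cells at 48 h and passed the F-test (adjusted p = 0.0050).

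CDH2, the gene of N-cadherin, was the most abundant of the 9 genes in all 8 groups. Untreated libraries held 86.9, 96.0 and 87.3 TPM at 0 h, 69.0, 70.0 and 69.8 TPM at 8 h and 65.9, 64.3 and 66.1 TPM at 48 h. Treated libraries held 97.3, 94.9 and 97.0 TPM at 8 h, 144.3, 165.1 and 147.3 TPM at 24 h and 134.2, 133.4 and 141.9 TPM at 48 h. The arms were apart from 8 h on, at 8 h mainly through the lower untreated level and later also with treated libraries above those at 0 h. The log2 fold change was 0.53 (SE 0.044, adjusted p = 6.8e-09) at 8 h, 1.20 (SE 0.044, adjusted p = 4.2e-15) at 24 h and 1.09 (SE 0.045, adjusted p = 1.8e-14) at 48 h.

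Of the CDH2 transcripts, 2 held 10% or more of its TPM, and they start at different exons. CDH2-201 (GRCh38 chr18:27950966-28177130, minus strand, 16 exons) held 61.8% to 73.5% of the gene's TPM per group and CDH2-202 (chr18:27951081-28036585, 15 exons) held 26.3% to 38.0%. At 48 h CDH2-201 stood at 45.9, 44.1 and 44.8 TPM in untreated and 97.3, 95.6 and 108 TPM in treated cells. CDH2-202 stood at 18.9, 20.2 and 21.3 TPM in untreated and 36.9, 37.4 and 33.4 TPM in treated cells, so both forms were higher in every treated library. The share of CDH2-202 was 30.8% ± 1.9 in untreated and 26.4% ± 2.5 in treated cells at 48 h (SD, n = 3), and these libraries did not overlap, whereas those at 24 h did.

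The bases before the start sites of both forms are shown because each form was higher in treated cells. Each run is the 250 bases before a start site on the minus strand in the RefSeq table for GRCh38.p14, 5′ to 3′, with capitals for CAGAC or its reverse complement GTCTG, a SMAD-binding motif, and for the E-box CANNTG. The run before the start of CDH2-201 is chr18:28177131-28177380 and the other, before a start that lies near that of CDH2-202, is chr18:28036642-28036891.
CDH2 upstream start: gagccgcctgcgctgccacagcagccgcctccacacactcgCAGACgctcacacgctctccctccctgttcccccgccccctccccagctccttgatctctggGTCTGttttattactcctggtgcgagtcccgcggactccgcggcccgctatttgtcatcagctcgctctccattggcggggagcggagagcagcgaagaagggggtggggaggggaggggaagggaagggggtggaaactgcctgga
CDH2 downstream start: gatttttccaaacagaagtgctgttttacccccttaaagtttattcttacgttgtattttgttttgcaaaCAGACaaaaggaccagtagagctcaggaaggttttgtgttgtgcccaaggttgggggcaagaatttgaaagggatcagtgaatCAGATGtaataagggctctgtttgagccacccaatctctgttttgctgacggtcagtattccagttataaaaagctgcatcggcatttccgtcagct

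The run before the upstream start held the SMAD motif 2 times, 147 and 209 bases before the start, and no CANNTG. The other run held the SMAD motif once, 180 bases before its start, and 1 CANNTG, 97 bases before it. In the 250 bases before all 35116 start sites of the table, the SMAD motif was found in 38% and CANNTG in 61.8%, so either match is common. CAGGTG, the E-box form that SNAI and ZEB proteins prefer, read on both strands and itself a case of CANNTG, was absent from both CDH2 runs and present in 17.5% of all windows. The table held windows for 5 of the 9 genes, and the windows of PRRX1, TWIST2 and ZEB2 held neither CAGGTG nor the SMAD motif, while 2 of 7 windows of ZEB1 held CAGGTG. Other ZEB1 windows held the SMAD motif, namely those before the start sites at 31318818, 31320554 and 31321660 on chromosome 10. A match of this kind is a description of letters and not of binding.

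**Figure D3:**
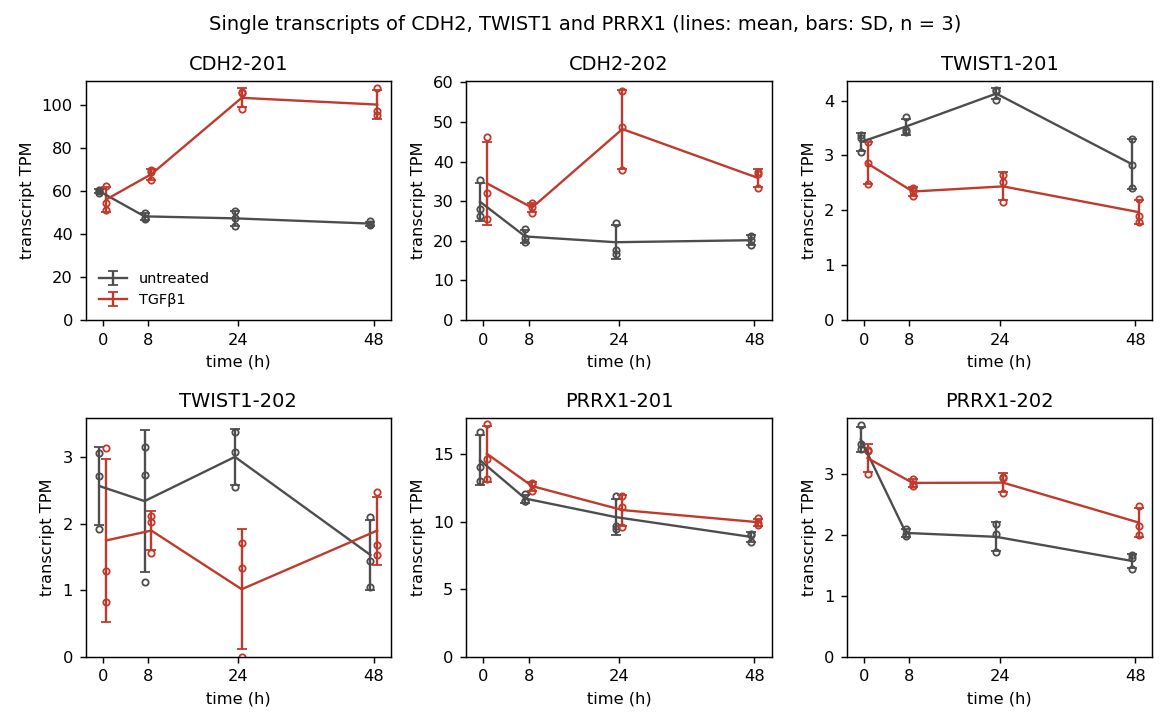
TPM of single transcripts (y axis, from 0) of CDH2, TWIST1 and PRRX1 against time in hours (x axis) in untreated (grey) and TGFβ1-treated (red) cells, with each library as a circle and the mean ± SD of 3 replicates. Both CDH2 transcripts lie higher in treated cells at 24 and 48 h, TWIST1-201 lies lower from 8 h on, and TWIST1-202 scatters more between replicates.

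CDH11, the gene of OB-cadherin, a type II cadherin of mesenchymal cells, responded late. At 8 h the untreated libraries held 5.44, 6.08 and 5.24 TPM and the treated ones 5.04, 6.60 and 6.44 TPM. At 48 h the values were 13.7, 12.6 and 12.5 TPM against 24.1, 22.2 and 22.9 TPM. The arms overlapped at 0 and 8 h and were apart at 24 and 48 h. The log2 fold change was 0.16 (SE 0.060, adjusted p = 0.063) at 8 h, 0.69 (SE 0.053, adjusted p = 7.6e-10) at 24 h and 0.79 (SE 0.047, adjusted p = 9.1e-12) at 48 h. CDH11 also rose between 24 and 48 h in both arms, by 0.87 in untreated and 0.96 in treated cells on the log2 scale. The gene has 19 annotated transcripts, and the form with the largest share of its TPM, CDH11-212 (GRCh38 chr16:64947547-65121930, minus strand), was at 5.75 ± 0.15 TPM in untreated and 9.40 ± 0.59 TPM in treated cells at 48 h.

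The 2 mesenchymal cadherins were set against CDH1, since E-cadherin is their counterpart in the cadherin switch. CDH1 was low in these cells, at 1.15 to 1.64 TPM in untreated cells at 0 h, and its mean was higher at 48 h than at 0 h in both arms. At 48 h it stood at 5.74, 4.86 and 5.06 TPM in untreated and at 3.95, 3.85 and 5.62 TPM in treated cells, which overlapped. CDH1 had fitted log2 fold changes of 0.32 at 8 h, 0.01 at 24 h and -0.35 at 48 h (SE 0.076, adjusted p = 0.00085), and the last value was 0.01 (adjusted p = 0.96) with 4 reference genes as the scale. The ratio of CDH2 to CDH1 TPM was 66.6 ± 16 in untreated and 77.5 ± 15 in treated cells at 0 h. It was 12.6 ± 0.96 in untreated and 31.3 ± 5.2 in treated cells at 48 h, so the ratio was lower at 48 h than at 0 h in both arms and higher in each treated library than in each untreated one at 24 and 48 h.

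**Figure D4:**
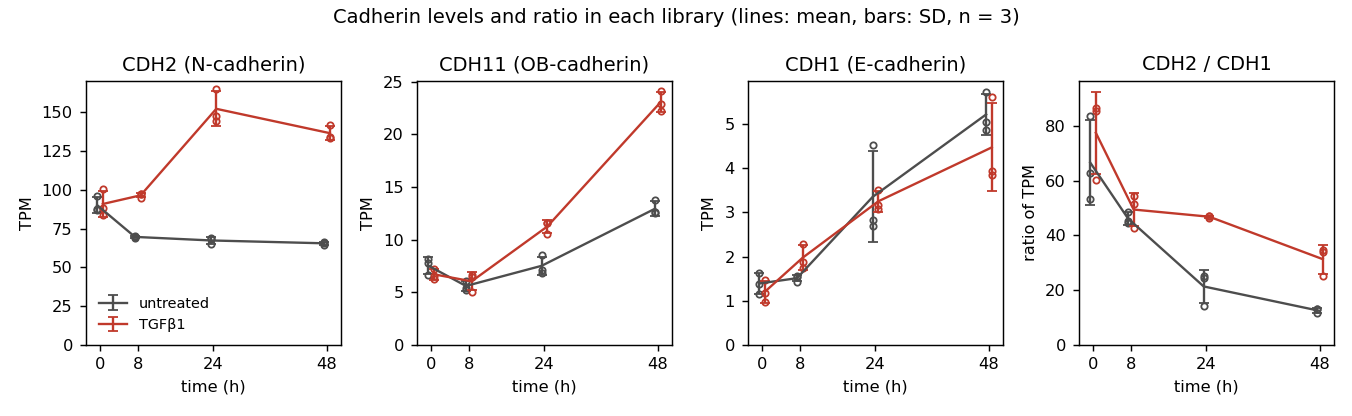
TPM of CDH2, CDH11 and CDH1 and the ratio of CDH2 to CDH1 TPM (y axes, from 0) against time in hours (x axis) in untreated (grey) and TGFβ1-treated (red) cells, with each library as a circle and the mean ± SD of 3 replicates. Mean CDH1 is higher at 48 h than at 0 h in both arms, and the mean ratio is lower, at 12.6 in untreated and 31.3 in treated cells at 48 h.

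The time course of the arm difference was tested directly. From 0 to 8 h, where the codes of the libraries are held constant within each arm, the difference changed for 3 of the 9 genes, SNAI1 by 1.40, SNAI2 by 1.06 and CDH2 by 0.51 on the log2 scale, beside 7.88% of all genes. From 8 to 24 h it changed for 2 of the 9, CDH2 by 0.67 (adjusted p = 1.9e-07) and CDH11 by 0.54 (adjusted p = 8.2e-05), beside 6.7% of all genes. From 24 to 48 h it changed for SNAI1 alone of the 9, beside 9.12% of all genes. The cadherins thus widened their difference between 8 and 24 h and SNAI1 between 24 and 48 h. The change of CDH2 from 0 to 8 h was not called with 4 reference genes as the scale, and that of CDH11 from 8 to 24 h was not called on the TPM scale or with length-scaled counts. The differences from 0 to 8 h and from 8 to 24 h share the 8 h libraries, as those from 8 to 24 h and from 24 to 48 h share the 24 h libraries.

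Untreated cells changed over the same hours. From 0 to 8 h, 5 of the 9 genes changed in the untreated arm, all 5 downwards, beside 25.9% of all genes. These were SNAI1 by -0.50, SNAI2 by -0.26, PRRX1 by -0.36, CDH2 by -0.41 and CDH11 by -0.58 on the log2 scale, with adjusted p between 1.3e-07 and 0.0014, and the call of PRRX1 was lost without untreated replicate 2 at 0 h. On the TPM scale neither SNAI2 nor PRRX1 was called, and TWIST2, whose change was upwards, was called there, with library totals and with the replicate block. From 24 to 48 h, 4 of the 9 changed in the untreated arm, beside 28.4% of all genes. SNAI1, SNAI2 and TWIST1 went down by -1.42, -0.29 and -0.66, and CDH11 went up by 0.87. SNAI2 was not called there on the TPM scale, and neither SNAI2 nor TWIST1 was called with 4 reference genes as the scale.

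Within the TGFβ arm, 4 of the 9 genes changed from 0 to 8 h, beside 33.8% of all genes. SNAI1, SNAI2 and TWIST2 rose by 0.90, 0.80 and 0.46, and CDH11 fell by -0.38, while the change of CDH2, 0.09, did not pass the test (adjusted p = 0.097). From 24 to 48 h, 2 of the 9 changed, beside 25.8% of all genes, CDH2 downwards by -0.21 (adjusted p = 0.00064) and CDH11 upwards by 0.96 (adjusted p = 2.4e-12).

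By level per transcript length, the order of the 9 genes in untreated cells at 0 h was CDH2, PRRX1, SNAI2, TWIST2, ZEB1, CDH11, TWIST1, SNAI1 and ZEB2, and only PRRX1 and SNAI2 overlapped as neighbours. In treated cells at 48 h the order was CDH2 with a mean of 136.5 TPM, SNAI2 with 47.7, ZEB1 with 23.5, CDH11 with 23.1, PRRX1 with 16.8, TWIST2 with 16.2, SNAI1 with 9.83, TWIST1 with 4.36 and ZEB2 with 0.560 TPM. There, ZEB1 overlapped with CDH11 and PRRX1 with TWIST2. SNAI1 had thus moved from below to above TWIST1, and their libraries did not overlap at either time.

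Genes whose mean log2 levels over the 8 groups ran most like those of each gene were named as a description, with Pearson's r over the 8 group means, which all come from the same 24 libraries. For SNAI1 they were METTL9 (r = 0.98), GJA1 (r = 0.98) and ALOX5AP (r = 0.98). For SNAI2 they were TGFBI, TAX1BP3 and PEDS1 (r = 0.99 each), and for CDH2 they were ARHGAP32 (r = 0.996), CDYL and CDK14 (r = 0.98 each). For CDH11 the closest was MTMR10 (r = 0.99), for TWIST1 ARTN (r = 0.98), for PRRX1 EIF4H (r = 0.996), for ZEB1 PIGQ (r = 0.999), for TWIST2 NIPSNAP3A (r = 0.99) and for ZEB2, whose level was nearly flat, CDK3 (r = 0.88).

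The surrounding genes of the programme were taken from lists. Of all genes tested, 21% were higher and 21.5% lower by the same F-test, so a list count near these shares does not set its list apart. Among all called genes, 49.3% were higher with TMM factors, 31.5% with library totals and 88.5% with 4 reference genes. Of 30 tested genes for other EMT-promoting factors, 15 were higher and 7 lower by the F-test, with a median mean log2 fold change of 0.13. The counts were 11 and 9 with library totals as the scale and 20 and 3 with 4 reference genes. HMGA2, an architectural chromatin factor, stood at 52.3 ± 0.70 TPM in untreated and 171 ± 3.3 TPM in treated cells at 48 h, and RUNX1 at 19.8 ± 1.8 against 38.9 ± 3.0 TPM. RUNX2 ran the other way, with 27.1 ± 1.0 against 15.0 ± 0.45 TPM, as did FOXF1 with 2.22 ± 0.05 against 0.473 ± 0.01 TPM. TCF4, an E-protein partner of TWIST factors, was higher by a mean log2 fold change of 0.40 (adjusted p = 3e-07), and TCF3, another E protein, did not pass (adjusted p = 0.098). FOXC1, FOXC2 and FOXF2 were not analysed here.

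Among 17 tested genes for factors that keep the epithelial state, 3 were higher and 11 lower, with a median of -0.55. The shares over all genes were 21% higher and 21.5% lower. FOXA1 stood at 13.0 ± 0.74 TPM in untreated and 6.48 ± 0.12 TPM in treated cells at 48 h, TFAP2A at 14.9 ± 0.59 against 6.21 ± 0.83 TPM and ELF3 at 17.0 ± 0.49 against 6.98 ± 0.77 TPM. GRHL2, OVOL1 and OVOL2 had at most 11 estimated counts in any library and did not pass the filter on low counts. The epithelial genes that SNAI and ZEB proteins are known to repress split, with 10 of 35 higher and 15 lower and a median of -0.0034. With 4 reference genes as the scale 18 were higher and 8 lower. MAL2, a membrane protein of apical transport, was at 59.0 ± 3.0 against 9.27 ± 0.87 TPM at 48 h and CLDN1, a tight junction claudin, at 45.5 ± 3.6 against 13.2 ± 0.94 TPM. The desmosomal genes PKP1 and DSG2 were higher in treated cells, PKP1 at 34.4 ± 0.77 against 16.1 ± 0.44 TPM and DSG2 at 125 ± 2.0 against 78.4 ± 2.4 TPM. ESRP1 and ESRP2, epithelial splicing factors, were below 1 TPM and at 6.27 ± 0.36 against 4.42 ± 0.29 TPM.

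The cadherin list, which includes CDH2 and CDH11, had 6 of 21 tested genes higher and 6 lower, and its median was -0.10. Over all genes the shares were 21% higher and 21.5% lower. With 4 reference genes as the scale 9 were higher and 3 lower. CDH8, a type II cadherin, stood at 16.8 ± 1.5 TPM in untreated and 13.5 ± 0.10 TPM in treated cells at 48 h and was lower by a mean log2 fold change of -0.51 (adjusted p = 6.8e-08). CDH3, the gene of P-cadherin, was near 1 TPM. Of 20 catenins and cadherin partners 12 were higher and 3 lower, with a median of 0.24. CTNNB1, the gene of β-catenin, stood at 182 ± 3.6 against 229 ± 2.9 TPM at 48 h, VCL (vinculin) at 60.3 ± 3.0 against 75.2 ± 0.84 TPM and ADAM12, a metalloprotease, at 40.1 ± 1.2 against 85.1 ± 2.7 TPM. CTNND1, the gene of p120-catenin, was lower by a mean log2 fold change of -0.17 (adjusted p = 0.00011), which became 0.11 (adjusted p = 0.26) with 4 reference genes as the scale.

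Of 34 genes for corepressors and chromatin enzymes that work with the factors 12 were higher and 8 lower, with a median of 0.03. These counts were 9 and 13 with library totals as the scale and 29 and 1 with 4 reference genes. For this and the next lists, the shares over all genes with TMM factors were 21% higher and 21.5% lower. KDM1A, a lysine demethylase recruited by Snail, was higher by a mean log2 fold change of 0.33 (adjusted p = 7.2e-11). LOXL2, a lysyl oxidase that stabilises Snail, was higher by 0.72 (adjusted p = 2.2e-10), and AJUBA, a LIM corepressor, was lower by -0.52 (adjusted p = 2.5e-13). CTBP1 did not pass (adjusted p = 0.26) and CTBP2 was higher by 0.20 (adjusted p = 4e-07). Of 39 kinases, ligases and deubiquitinases that act on the SNAI and TWIST proteins, 7 were higher and 7 lower, and GSK3B, the kinase that marks Snail for degradation, did not pass (adjusted p = 0.050). With library totals as the scale, 2 of these 39 were higher and 11 lower, and with 4 reference genes 25 were higher and 4 lower. Of 32 mesenchymal genes downstream 24 were higher and 6 lower, with a median of 0.75. VIM, the gene of vimentin, was at 764 ± 7.3 TPM in untreated and 3576 ± 13 TPM in treated cells at 48 h, and the proteoglycan genes DCN and LUM were among the lower ones, DCN with 12.2 ± 1.1 against 1.47 ± 0.33 TPM.

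**Figure D5:**
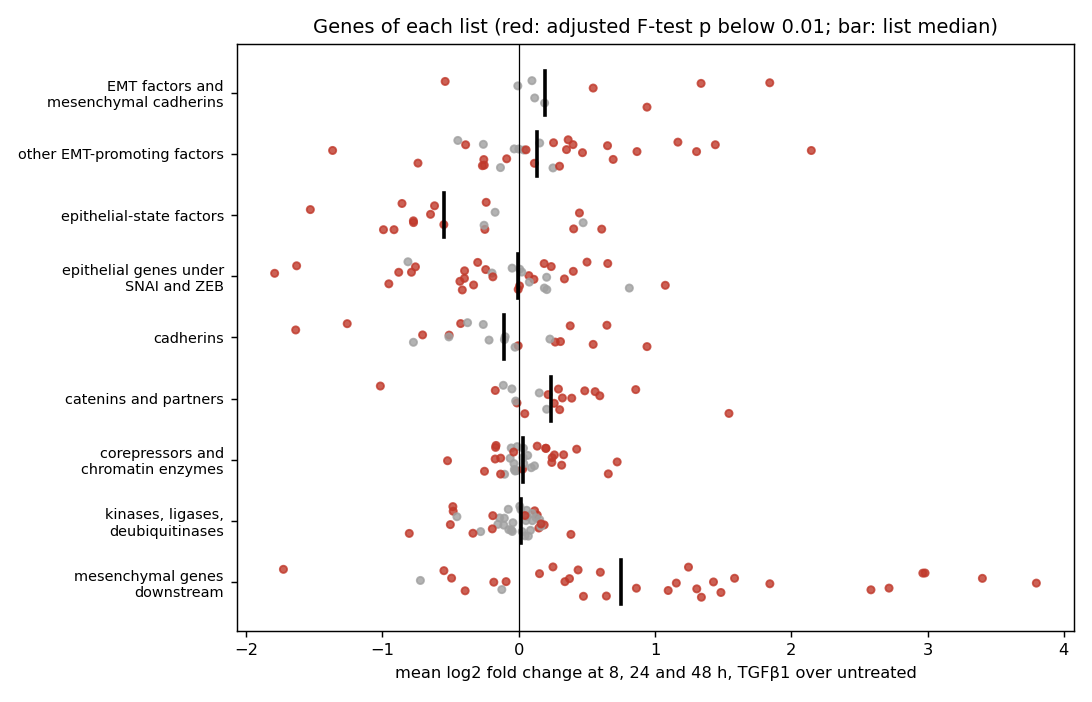
Mean log2 fold change at 8, 24 and 48 h between TGFβ1-treated and untreated cells (x axis) for each tested gene of 9 lists (y axis), with red for an adjusted F-test p below 0.01, grey for the rest and a bar at the list median. The factors that keep the epithelial state centre at -0.55 and the downstream mesenchymal genes at 0.75, while the 9 EMT genes spread from -0.54 for TWIST1 to 1.84 for SNAI1.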

How the data were processed

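SK-MES1 RNA-Seq reads were quantified by the authors with kallisto 0.43.0 against Ensembl release 79 transcripts (GRCh38). The authors deposited for each library the estimated counts per transcript, not normalized, and TPM values, which are scaled for length and library. Effective lengths, also deposited, served only to scale counts by length in an alternative. Transcripts were assigned to genes with GENCODE release 44, which matched 89.8% of them. Gene counts were summed, rounded and tested with limma 3.58.1 (voom, TMM, 1 mean per group) in R 4.3.3 where at least 3 libraries had 10 counts. p-values were adjusted by Benjamini-Hochberg over all genes tested, and 0.01 was the threshold. The moderated F-test joined the differences at 8, 24 and 48 h. edgeR 4.0.16 and DESeq2 1.42.0 were alternatives. The fit recovered planted changes when tested on simulated data, in genes with ample counts. The planted changes were larger than any arm difference of ZEB1, ZEB2, TWIST1, TWIST2, PRRX1 and CDH11 in the main fit. No outlying library was simulated, so the recovery does not speak to calls of smaller changes.

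The 9 genes and the lists were chosen with earlier results of these data known. From each list, up to 3 higher and 3 lower genes with the smallest F-test p were eligible to be named, plus fixed partner genes; VIM was named outside that rule. Changes within the TGFβ arm and single-transcript values were added after the data were seen. Genes with a like pattern had at least 1 TPM on average. Replicate 2 of the TGFβ arm stood apart at 0 and 24 h and was left out in an alternative. Figures used matplotlib 3.10.9.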

Additional observations from a re-analysis of the deposited data

Results flagged for a closer look

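In 3 cases the difference between the arms itself changed between time points by a test of that change in limma. The difference of SNAI1 widened by 1.67 on the log2 scale from 24 to 48 h, that of CDH2 by 0.67 from 8 to 24 h and that of CDH11 by 0.54 from 8 to 24 h. For SNAI1 the untreated level fell over these hours, by a test within that arm. For both cadherins every treated library at 24 h lay above every treated library at 8 h. The libraries of 8 h carry other codes than those of 24 h, and the part of the codes in the changes of the cadherins was not tested. With 3 libraries a group, no test for a single outlying value was run.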

How the results depend on the processing

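SNAI1, SNAI2 and CDH2 were called higher at 8, 24 and 48 h, and CDH11 at 24 and 48 h, under every alternative run. The change of the arm difference from 8 to 24 h was called for 1 of the 9 genes with log2(TPM + 1), log2(TPM + 0.1) or length-scaled counts, where CDH11 was lost. The change from 24 to 48 h was called for 2 with log2(TPM + 1), log2(TPM + 0.1) or an adjusted p of 0.05, where TWIST1 was gained. With 4 reference genes as library size, which moves the median of all genes to 0.43 at 24 h and 0.34 at 48 h, the F-test called 8 of the 9, with ZEB1, TWIST2 and PRRX1 added, the test at 24 h 8 and that at 48 h 7, and the log2 fold change of TWIST2 at 24 h was 0.41 in place of -0.03. Other counts of called genes moved by at most 1.5 times. Without TGFβ replicate 2 at 0 and 24 h, chosen after the data were seen, the F-test also called PRRX1. Leaving out 1 library at a time gave 0 to 0 genes at 0 h, 4 to 4 at 8 h, 5 to 5 at 24 h, 4 to 5 at 48 h and 5 to 6 by the F-test. It gave 2 to 2 for the change from 8 to 24 h, 1 to 2 from 24 to 48 h and 3 to 3 from 0 to 8 h, and within the untreated arm 4 to 6 from 0 to 8 h and 4 to 6 from 24 to 48 h. The 2 from 24 to 48 h came without untreated replicate 1 at 48 h, which added TWIST1. At 0 h DESeq2 called 8 genes in all. Same-numbered replicates deviated together with correlations from -0.06 to 0.25, so the numbers were not taken as pairs; with the replicate block the F-test called 6 of the 9, and within the untreated arm 6 from 0 to 8 h and 6 from 24 to 48 h. Over protein-coding transcripts only, 39 of 72 group means of TPM moved by more than 1 SD, all of them of ZEB1, ZEB2, TWIST1, PRRX1 and CDH11, and ZEB2 then failed the filter. Counts over all genes ranged from 6268 to 10962 by the F-test. The causes of these shifts were not tested. Depth limits ZEB2 most, at 37.7 to 80.8 estimated counts per library.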

Other observations

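A few genes of the lists were called in opposite directions at 8 and 48 h. CDH6, a type II cadherin, had a log2 fold change of 1.22 at 8 h (limma, adjusted p = 6.8e-09) and -0.59 at 48 h (adjusted p = 2.5e-05). Its levels at 8 h were 1.87, 2.14 and 1.90 TPM in untreated and 4.08, 3.83 and 4.07 TPM in treated cells, and at 48 h 5.15, 5.39 and 5.33 against 3.33, 3.26 and 3.44 TPM, so the arms were apart at both times. TP63 had a log2 fold change of 0.80 at 8 h, 1.02 at 24 h and -0.49 at 48 h (adjusted p = 5.2e-09 and 2.6e-06 at 8 and 48 h). With 4 reference genes as the scale neither was called at 48 h, where CDH6 had -0.23 (adjusted p = 0.16) and TP63 -0.13 (adjusted p = 0.36). ESRP1 ran the other way, with -0.52 at 8 h and 0.74 at 48 h (adjusted p = 0.0045 and 0.00056), at levels below 1 TPM. These 3 were picked out after their values were seen, and the change between the time points was not tested for them here.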
